A study of Mus musculus with 8 samples.

Results

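The 10 genes described here mark the developing neural tube, 8 of them its dividing progenitor cells (Sox2, Pax3, Pax6, Nkx6-1, Olig2, Hes5, Fabp7 and Nes) and 2 of them neurons (Tubb3 and Stmn2). They were chosen by name from the 43346 gene identifiers in the count files, and all 10 had counts. RNA was sequenced from notochord-derived cells (NDCs) of Shh-cre;ROSA:YFP mice, in which Cre driven by the Shh locus switches on a yellow fluorescent protein (YFP) in cells that have expressed Shh and in their descendants. All 8 samples came from this mouse model, and each sample was the pooled animals of 1 litter. The 4 litters at embryonic day 12.5 (E12.5; NDP10.2, NPD3, NPD4 and NPD9.2) were whole notochords, dissected free of adjoining tissue and not sorted. The 4 litters at birth (P0; NPD26, NPD27, NPD28 and NPD30) were cells shaken out of the nucleus pulposus of opened discs and sorted for YFP. Stage and isolation method changed together and cannot be told apart.

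The neural tube lies directly dorsal to the notochord and becomes the spinal cord. Sonic hedgehog released by the notochord and by the floor plate, the ventral midline of the tube, divides its progenitors into domains that are told apart by transcription factors, with Pax3 dorsal, Pax6 intermediate, and Nkx6-1 and Olig2 ventral. Progenitors then leave the cell cycle, silence these genes and turn on neuronal cytoskeleton genes. Floor plate cells themselves express Shh. Several of the genes are also used outside the neural tube, Pax3 in muscle precursors and neural crest, Nes in muscle precursors and endothelium, Sox2 and Fabp7 in glia of the peripheral nerves and ganglia, and Tubb3 and Stmn2 in sensory and sympathetic neurons.

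Between 4442775 and 8904050 reads per litter were counted on genes. Counts were scaled to CPM (counts of a gene scaled to a fixed library total) on library sizes corrected by the TMM method, and 3 counts, the detection floor used here, equaled 0.353 to 0.738 CPM on that scale. This floor covers counting error only. Means are given ± SD over the 4 litters of a stage. Of the 10 genes, 8 had enough counts to be tested, Olig2 and Hes5 being left out by the filter on low counts. Log2 fold changes set P0 over E12.5 and come from the edgeR quasi-likelihood test, and every adjusted p is adjusted by the Benjamini-Hochberg method over all genes tested in the same fit, 15467 of them with all litters. Nothing in the labels separates cultures or animals below the litter, so the p-values measure the spread between litters. The notochord gene T was present in all litters, at 242 to 942 CPM at E12.5 and 574 to 2323 CPM at P0.

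Sox2, Pax3 and Nes, all progenitor genes, were lower at P0, and no other member passed the test in either direction. These 3 of 8 tested genes stand against a background in which 27.9% of all genes tested passed, 12.0% being lower and 16.0% higher at P0. In each of the 3 genes every P0 litter lay below every E12.5 litter, which was so for 14.4% of all genes tested. Pax6, Nkx6-1 and Fabp7 had overlapping ranges at the stages and small fold changes. The neuron genes Tubb3 and Stmn2 had a single E12.5 litter, NPD4, far above the other 3. In the fit without NPD4 both were higher at P0. That was the only 1 of the 8 fits with a litter left out in which they passed. It is singled out by the values of these same genes. In whole-litter RNA, fewer cells of a type and less RNA per cell cannot be told apart.

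**Figure D1:**
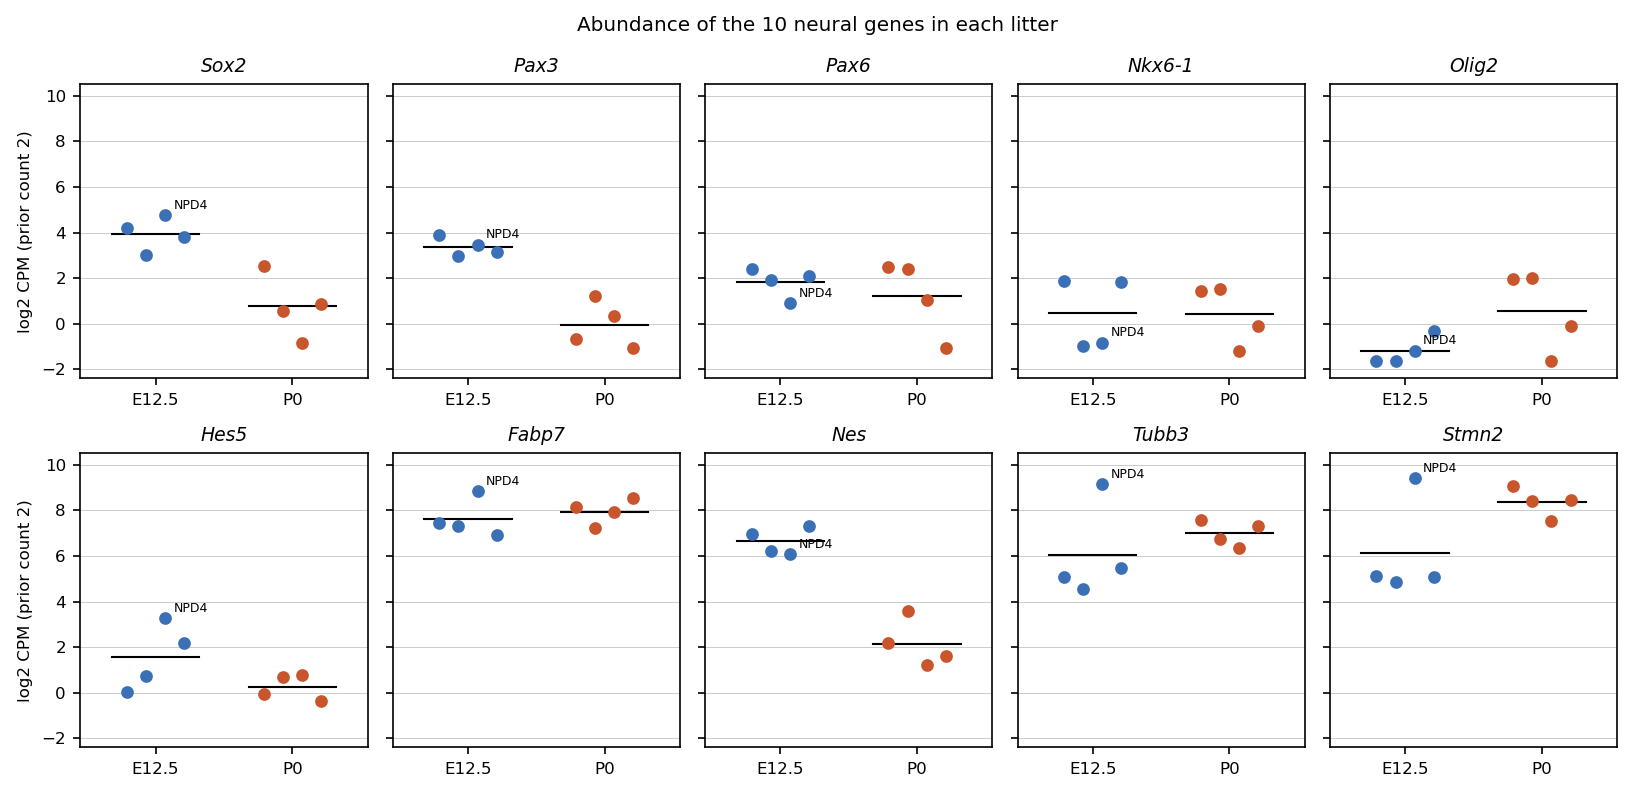
Abundance of the 10 genes on the log2 CPM scale (prior count 2), with 1 point per litter, E12.5 in blue, P0 in orange, and a horizontal bar at the mean of the 4 litters of a stage. Sox2, Pax3 and Nes have no overlap between stages, and the E12.5 litter NPD4 stands far above the other E12.5 litters in Tubb3 and Stmn2.

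Nes encodes nestin, an intermediate filament protein of neural progenitors (ENSMUSG00000004891.12, chromosome 3 from 87971078 to 87980451). Its abundance was 127, 74.0, 67.5 and 161 CPM in the E12.5 litters NDP10.2, NPD3, NPD4 and NPD9.2. At P0 it was 4.25, 11.8, 2.00 and 2.73 CPM in NPD26, NPD27, NPD28 and NPD30. The highest P0 litter, NPD27, was well below the lowest E12.5 litter, NPD4. Nes thus fell from a mean of 107 ± 44.4 CPM to one of 5.2 ± 4.51 CPM (SD over 4 litters), which is a log2 fold change of -4.36 with a standard error of 0.58 (adjusted p = 0.000705). Nes had the largest fold change of the 8 tested members, and it passed in each of the 8 fits made without a litter, where its log2 fold change ranged from -5.15 (without NPD27) to -4.08.

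Pax3 encodes a paired-box transcription factor of the dorsal tube, of neural crest and of muscle precursors (ENSMUSG00000004872.11, chromosome 1 from 78101267 to 78197134). It was measured at 14.4, 7.42, 10.8 and 8.61 CPM in the E12.5 litters in the same order and at 0.31, 2.02, 0.94 and 0.15 CPM in the P0 litters. NPD26 and NPD30, with 2 and 1 counts, were below the floor of 3 counts. Pax3 fell from 10.3 ± 3.06 CPM to 0.857 ± 0.846 CPM, with log2 fold change -3.54 and standard error 0.66 (adjusted p = 0.00288), and passed in all 8 fits without 1 litter, reaching -4.33 without NPD27. Depth limits the size of this fall, since the P0 mean was near the floor.

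Sox2 encodes an HMG-box transcription factor that keeps neural progenitors undifferentiated (ENSMUSG00000074637.6, chromosome 3 from 34650405 to 34652461). It had 17.9, 7.81, 27.0 and 13.5 CPM in the E12.5 litters, against 5.50, 1.15, 0.24 and 1.52 CPM in the P0 ones. The highest P0 litter, NPD26, came close to the lowest E12.5 litter, NPD3, without reaching it. Its mean fell from 16.6 ± 8.08 CPM to 2.10 ± 2.33 CPM, with log2 fold change -3.0 and standard error 0.75 (adjusted p = 0.013). Sox2 passed in all 8 fits without 1 litter, with -4.10 when NPD26 was left out, but not when the E12.5 litters NDP10.2 and NPD9.2, which had the highest shares of ambiguously assigned reads (16.3% and 17.5%, against 7.07% to 11.6% in the others), were both left out (log2 fold change -3.10, adjusted p = 0.0646). In that fit 2 members passed, both lower, beside 15.2% of all genes, 8.80% higher and 6.41% lower.

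The DNA just before the starts of Nes and Sox2, the fallers with a RefSeq promoter window (GRCm38.p6, forward strand), and of the neuron gene Tubb3 is shown because these genes carried the main contrasts. The stretches are chr3:87970843-87971077 for Nes, chr3:34649745-34649994 for Sox2 and chr8:123411303-123411423 for Tubb3, written 5′ to 3′ and ended before the gene starts of Gencode M21. Capitals mark CATTGT or its reverse complement ACAATG, the core bound by SOX proteins, and TGGGAA or TTCCCA, the core bound by RBPJ, the DNA-binding partner of Notch.
Nes: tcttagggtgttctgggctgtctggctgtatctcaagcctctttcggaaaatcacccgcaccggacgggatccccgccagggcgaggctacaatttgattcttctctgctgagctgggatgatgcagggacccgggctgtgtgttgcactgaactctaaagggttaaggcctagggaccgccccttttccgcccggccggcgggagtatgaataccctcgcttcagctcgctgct
Sox2: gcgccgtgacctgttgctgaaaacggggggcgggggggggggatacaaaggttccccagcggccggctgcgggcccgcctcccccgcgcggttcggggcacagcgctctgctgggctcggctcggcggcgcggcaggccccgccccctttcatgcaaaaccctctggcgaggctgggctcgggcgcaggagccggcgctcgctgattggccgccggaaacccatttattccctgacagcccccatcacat
Tubb3: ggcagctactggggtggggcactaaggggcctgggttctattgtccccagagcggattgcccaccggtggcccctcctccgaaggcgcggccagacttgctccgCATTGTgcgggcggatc

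These motifs were searched on both strands in the 250 bases before each RefSeq start and do not overlap one another. They were chosen after the members' windows had been read, so the matches are a description. The SOX core was found in 10.7% and the RBPJ core in 21.6% of 32851 windows of the same length. Among the 8 members with a window, Tubb3 held the SOX core at 146 and at 96 bases before its start, the latter inside the Gencode gene and not shown. Hes5 held the SOX core at 211 and 172 and the RBPJ core at 226 and 82 bases before its start. Olig2 held 1 SOX core, at 68 bases before its RefSeq start and also inside the Gencode gene. Fabp7 held 1 RBPJ core, and Sox2, Pax6, Nkx6-1 and Nes held neither.

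Pax6, a paired-box factor of intermediate progenitors (ENSMUSG00000027168.17, chromosome 2 from 105668900 to 105697364), was low at both stages. It had 21, 18, 13 and 16 counts at E12.5 and 34, 35, 15 and 1 counts at P0. All litters but NPD30 were above the floor, and the ranges overlapped. The means were 3.49 ± 1.42 CPM and, at P0, 3.08 ± 2.54 CPM (log2 fold change -0.17, standard error 0.78, adjusted p = 0.898). A span of 1 standard error to each side runs across 0.

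Nkx6-1, a homeobox factor of ventral progenitors (ENSMUSG00000035187.9, chromosome 5 from 101658139 to 101664996), had 14, 1, 2 and 13 counts at E12.5 and 15, 18, 1 and 4 counts at P0. Some litters of each stage were below the floor, with NPD3 and NPD4 low at E12.5 and NPD28 low at P0. The means of 1.73 ± 1.75 CPM and 1.42 ± 1.24 CPM gave log2 fold change -0.23 with standard error 1.04 (adjusted p = 0.894). Olig2, the basic helix-loop-helix factor of motor neuron and oligodendrocyte progenitors (ENSMUSG00000039830.8, chromosome 16 from 91225457 to 91228677), had 0, 0, 1 and 2 counts at E12.5 but 23, 26, 0 and 4 at P0. It was thus below the floor in every E12.5 litter and in NPD28. The P0 mean of 1.99 ± 1.97 CPM rested on NPD26 and NPD27. Tested without a filter, Olig2 gave log2 fold change 3.59 at an edgeR adjusted p of 0.0343, a fitted value that depends on the prior for counts near 0, and 4 members then passed, Olig2 higher and the same 3 lower. In that fit 15.2% of all genes passed, 9.18% higher and 5.97% lower. A two-sided exact permutation test of its log2 CPM gave p = 0.171, where 4 litters against 4 cannot go below 0.0286.

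Mag and Mog, chosen after their values were seen, were also higher in NPD26 and NPD27 than in the other P0 litters. Mag, a myelin glycoprotein gene, had 29.7 and 48.7 CPM in NPD26 and NPD27 and 1.53 and 1.97 CPM in NPD28 and NPD30. Mog, found in the outer myelin of oligodendrocytes, had 12.0 and 5.05 CPM against 0.118 and 0.152 CPM. The astrocyte and oligodendrocyte list as a whole did not follow this order, with sums of 393, 416, 356 and 553 CPM in NPD26, NPD27, NPD28 and NPD30. The neural crest and Schwann list did, with 539 and 688 CPM in NPD26 and NPD27 and 48.6 and 109 CPM in NPD28 and NPD30. The part of these cells in the Olig2 values was not tested. With NPD26 and NPD27 left out, an alternative added once the values were known, 3 of the 9 members tested passed, all lower, beside 17.8% of all genes, 10.3% higher and 7.48% lower.

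Hes5 encodes a transcriptional repressor induced by Notch signaling in progenitors (ENSMUSG00000048001.7, chromosome 4 from 154960923 to 154962371). It had 3, 7, 77 and 17 counts at E12.5 but 4, 9, 12 and 3 at P0. NPD4 had the highest value of all and the ranges overlapped. The E12.5 mean was 3.89 ± 3.91 CPM and the P0 mean 0.949 ± 0.477 CPM. Without a filter the log2 fold change was -2.03 with an edgeR adjusted p of 0.0592, and the two-sided exact permutation test gave p = 0.143. Of the Hes5 exon bases, 31.8% are shared with the antisense transcript Gm20421, and reads of the pair cannot be told apart where the counting did not use strand, which is not given in the sources used here.

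Fabp7 encodes brain lipid-binding protein, a fatty acid-binding protein of radial glia and of Schwann cell precursors (ENSMUSG00000019874.7, chromosome 10 from 57784881 to 57788450). It had the highest mean CPM of the progenitor members at each stage, although in NPD9.2 Nes was higher. The E12.5 litters had 175, 157, 463 and 122 CPM, whereas the P0 ones had 282, 148, 241 and 371 CPM. NPD4 was the highest of all 8, and the other E12.5 litters lay at or near the lowest P0 litter. The means of 229 ± 157 CPM and 260 ± 92.3 CPM gave log2 fold change 0.18 with standard error 0.43 (adjusted p = 0.796), and without NPD4 it was 0.78 (standard error 0.33, adjusted p = 0.109). Unlike in Nes, Sox2 and Pax3, the Fabp7 ranges of the stages overlapped.

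Tubb3 encodes the neuron-specific β-tubulin of class III (ENSMUSG00000062380.3, chromosome 8 from 123411424 to 123422015). It was measured at 33.3, 23.2, 576 and 43.5 CPM in the E12.5 litters NDP10.2, NPD3, NPD4 and NPD9.2. The P0 litters had 189, 108, 80.2 and 159 CPM. NPD4 was above every P0 litter and the other 3 E12.5 litters were below every P0 litter. With all litters its log2 fold change was -0.34 with standard error 0.92 (adjusted p = 0.823). Without NPD4 it was 2.00 (standard error 0.36, adjusted p = 0.00318), the E12.5 mean then being 33.3 ± 10.15 CPM (SD, n = 3) against 134 ± 49.0 CPM at P0.

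Stmn2 encodes stathmin 2, a microtubule-binding protein of growing axons (ENSMUSG00000027500.10, chromosome 3 from 8509360 to 8561606). The E12.5 litters had 34.7, 28.5, 689 and 33.9 CPM and the P0 litters 536, 336, 185 and 349 CPM. The pattern was that of Tubb3, with NPD4 above all others and the remaining E12.5 litters below all P0 litters. The log2 fold change was 0.84 (standard error 0.98, adjusted p = 0.571) with all litters and 3.43 (standard error 0.39, adjusted p = 0.00023) without NPD4, whose removal left an E12.5 mean of 32.4 ± 3.38 CPM against 352 ± 144 CPM at P0. Without NPD4 the members past the test numbered 5, 2 higher and 3 lower, beside 16.0% of all genes higher and 11.2% lower in that fit. NPD4 was left out in turn like every other litter, and nothing in its label sets it apart. Tubb3 and Stmn2 each passed in 1 of the 8 fits with a litter left out, that without NPD4. This fit is dwelt on because of their own values in NPD4, so it is no independent measure of a rise.

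**Figure D2:**
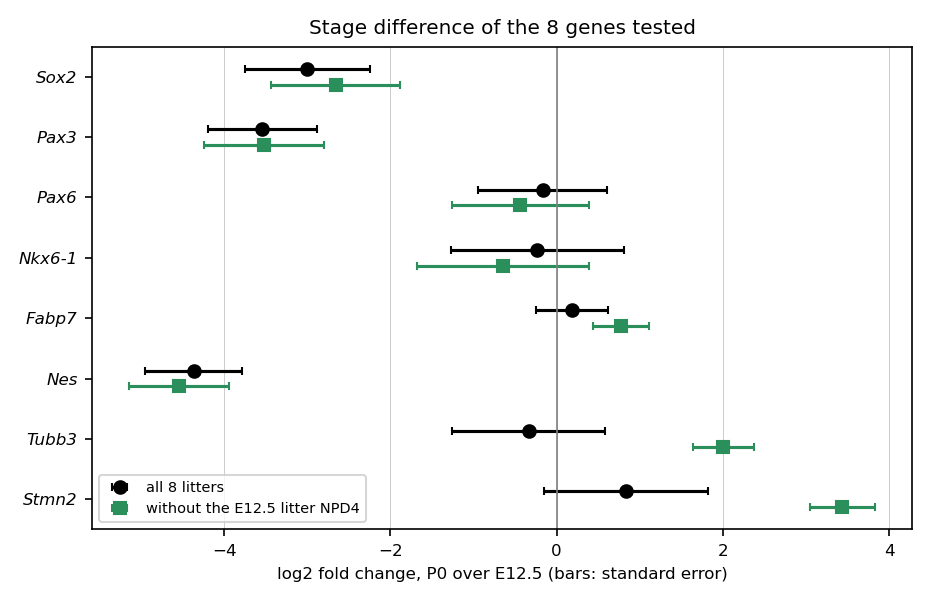
Log2 fold change, P0 over E12.5, of the 8 members tested by edgeR, with all 8 litters (black circles) and without the E12.5 litter NPD4 (green squares); bars are standard errors. Tubb3 moves from -0.34 to 2.00 and Stmn2 from 0.84 to 3.43, while Nes, Pax3 and Sox2 stay below 0 in both fits. The fit without NPD4 was the only 1 of the 8 with a litter left out in which Tubb3 and Stmn2 passed.

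Per kilobase of exon, which allows genes to be compared, the order of the mean levels at E12.5 was Fabp7, Tubb3, Stmn2, Nes, Sox2, Hes5, Pax3, Nkx6-1, Pax6 and Olig2. Fabp7 stood at 184 ± 126 CPM per kilobase at E12.5 and 208 ± 73.9 at P0. Tubb3 had 90.5 ± 145 and 71.8 ± 26.2, and Stmn2 had 35.1 ± 58.6 and 62.8 ± 25.7, in CPM per kilobase at E12.5 and P0. The place of the neuron genes at E12.5 rested on NPD4, which had 309 CPM per kilobase of Tubb3 and 123 of Stmn2. Over the other 3 E12.5 litters Fabp7 was at 121 ± 21.6, Nes at 18.8 ± 6.80, Tubb3 at 17.8 ± 5.43, Sox2 at 6.36 ± 2.47 and Stmn2 at 5.78 ± 0.603 CPM per kilobase. There Nes and Tubb3 were within their spread of each other, as were Sox2 and Stmn2, and Fabp7 was above both neuron genes in every E12.5 litter. Over all 4 litters Nes stood next with 16.7 ± 6.92 CPM per kilobase and was at 0.810 ± 0.704 at P0, close to Sox2 at 1.02 ± 1.13 and Olig2 at 0.788 ± 0.778. The transcription factors of the domains were the lowest, Pax6 at 0.299 ± 0.121 and Nkx6-1 at 0.553 ± 0.558 CPM per kilobase at E12.5.

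The progenitor and neuron genes were set against each other within each litter, as the mean log2 CPM of the 8 progenitor genes minus that of Tubb3 and Stmn2. This difference was -1.95, -2.26, -6.13 and -1.90 at E12.5, against -6.06, -5.17, -5.98 and -6.85 at P0. NPD4 thus fell among the P0 litters, and the other 3 E12.5 litters stood apart from them. NPD4 differed from the rest of its stage in the neuron genes, with a mean log2 CPM of 9.30 against 4.70 to 5.28, while its mean over the progenitor genes, 3.17, lay within the 2.45 to 3.37 of the other 3. Single progenitor genes did differ there, Fabp7 with 463 CPM against 122 to 175 CPM and Hes5 with 9.31 CPM against 0.708 to 4.18 CPM. The stage means of the difference were -3.06 (SD 2.05, n = 4) and -6.02 (SD 0.69, n = 4). It rests on the choice of the genes and is given without a test.

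**Figure D3:**
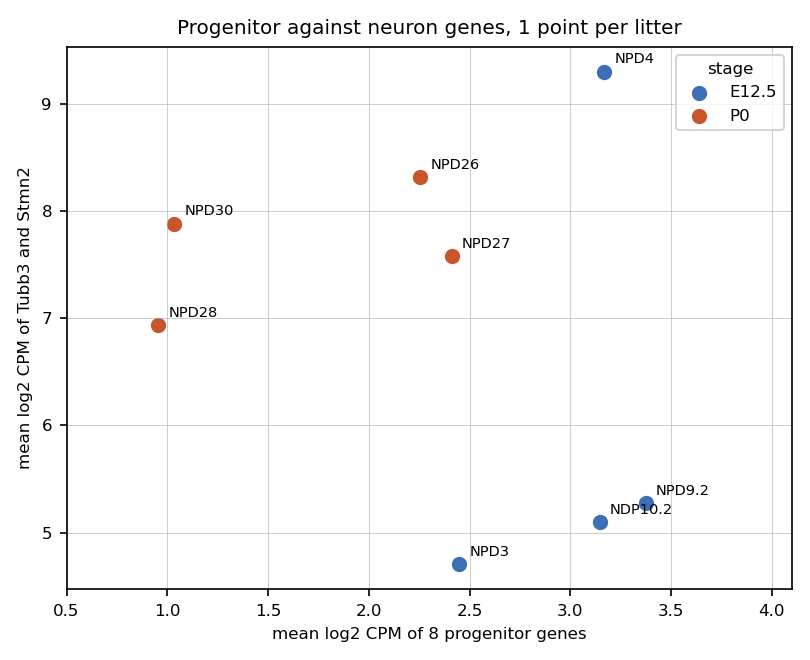
Mean log2 CPM of the 8 progenitor genes (horizontal axis) against that of Tubb3 and Stmn2 (vertical axis), with 1 labelled point per litter. NPD4 (3.17, 9.30) lies within the other E12.5 litters in the progenitor mean and has a neuron level above all P0 litters, which lie between 6.93 and 8.32.

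The other genes of the neural tube were taken from 9 lists with 131 genes that hold no member, 91 of which were tested. Of these, 11 were higher and 24 lower at P0, beside 16.0% and 12.0% of all genes tested. Their median log2 fold change was -0.94, beside 0.04 over all genes tested. The same shares are the background for each list below, and counts in short lists near them are not read as a result. Without NPD4 the lists held 29 higher and 29 lower genes of 97 tested, beside 16.0% and 11.2% of all genes, and the median was -0.06. The lists were chosen with earlier results of these data known.

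In the list of neural progenitor and radial glial genes, 7 of 14 tested genes fell and none passed in the other direction, with a median log2 fold change of -2.07. Msi1, an RNA-binding protein of neural stem cells, fell from 93.7 ± 19.9 to 11.0 ± 3.45 CPM (log2 fold change -3.09, standard error 0.31, edgeR adjusted p = 0.000142). Gli3, the transcription factor that represses hedgehog targets, fell from 103 ± 27.7 to 18.9 ± 11.0 CPM (-2.45, standard error 0.42, edgeR adjusted p = 0.00206). Ednrb, an endothelin receptor of radial glia and neural crest, was the most abundant of the list at 280 ± 166 CPM in the E12.5 and 64.2 ± 60.7 CPM in the P0 litters, but did not pass (edgeR adjusted p = 0.084). Sox1 and Sox3, the closest relatives of Sox2, had too few counts to be tested, with means of 1.10 and 0.833 CPM at E12.5, and Sox1 reached 8.33 CPM in NPD26.

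The domain factors were mostly too low to test, with 7 of 17 tested and 2 lower. Msx1, a dorsal homeobox gene, had a log2 fold change of -2.73 (edgeR adjusted p = 0.0104, and -3.37 without NPD27), and Pax7, the relative of Pax3 in the dorsal tube and in muscle precursors, of -3.30 (edgeR adjusted p = 0.0296). Pax7 did not pass without NDP10.2, NPD9.2 or NPD26, at edgeR adjusted p = 0.0664, 0.0752 and 0.0572, and was at -4.17 without NPD27. Lmx1a and Irx3 were the most abundant of the list and did not pass, with E12.5 means of 56.0 ± 30.7 and 43.3 ± 27.5 CPM and P0 means of 46.3 ± 32.4 and 32.1 ± 18.5 CPM. Of the floor plate and p3 genes, 5 of 7 tested fell. They were led by Shh, which is a gene of the notochord as well as of the floor plate. Shh fell from 841 ± 456 to 5.94 ± 5.04 CPM (log2 fold change -7.14, standard error 0.95, edgeR adjusted p = 0.000742, and -7.73 without NPD30). The part of each tissue in the Shh values was not tested. Spon1, which encodes the secreted protein F-spondin of the floor plate, and Sulf1, a heparan sulfate sulfatase gene of floor plate and notochord, fell by 3.68 and 2.93 on the log2 scale (edgeR adjusted p = 5.45e-05 and 0.000262). Nkx2-2 and Nkx2-9, transcription factor genes of floor plate and p3 cells, were at most 2.02 and 0.315 CPM in any litter.

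Of the 10 proneural genes, most of them of the basic helix-loop-helix family, 2 had enough counts to be tested. Neurod1 had 175 CPM in NPD4 and 1.18 to 2.46 CPM in the other E12.5 litters, and Neurog1 43.9 CPM against 0.944 to 2.15 CPM. Insm1, a zinc finger gene of newborn neurons, had 81.1 CPM in NPD4 and 4.18 to 11.8 CPM in the others. Neurog2, the main proneural gene of the spinal cord, was at 0.967 CPM in NPD4.

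The pan-neuronal genes shared the high values of Tubb3 and Stmn2 in NPD4. Of 27 tested, 3 were higher and 1 lower with all litters, and 12 were higher and 1 lower without NPD4, where the median log2 fold change moved from -0.11 to 0.85. All 27 had their highest E12.5 value in NPD4, as had 24.3% of all genes tested. In 23 of the 27, NPD4 was more than 2 times the median of the other E12.5 litters, as in 8.46% of all genes with such a ratio. Nefl, the light neurofilament gene, had 558 CPM in NPD4, 17.5 to 39.3 CPM in the other E12.5 litters and 56.3 to 155 CPM at P0, although 32.8% of its exon bases are shared with Nefm on the opposite strand. Gap43, a growth cone protein gene, had 394 CPM against 38.4 to 41.0 CPM, and 51.4 to 183 CPM at P0. Nefh, the heavy neurofilament gene of mature axons, rose from 2.75 ± 2.83 to 20.3 ± 9.65 CPM (log2 fold change 2.80, edgeR adjusted p = 0.00786, and 3.88 without NPD4), with every P0 litter above NPD4. Nhlh1, a gene of newly born neurons, fell (log2 fold change -5.93, edgeR adjusted p = 0.0122) and had 112 CPM in NPD4 and at most 1.01 CPM at P0. Its log2 fold change was -3.20 without NPD4, and it did not pass without NPD30 (edgeR adjusted p = 0.0568).

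The lists of neuron subtypes did not move together. Of 10 sensory and sympathetic genes, all tested, 3 were higher and 3 lower, and 6 were higher and 3 lower without NPD4. Tac1 and Calca, which encode the neuropeptides substance P and CGRP of sensory neurons, were at or under 3.26 and 1.57 CPM in the E12.5 litters. At P0 they had 158, 101, 59.7 and 125 CPM and 58.3, 37.6, 27.5 and 45.2 CPM, with edgeR adjusted p = 0.00108 for Tac1 and 0.000267 for Calca. Avil, an actin-binding protein gene of sensory ganglia, rose from 4.60 ± 3.39 to 49.3 ± 13.1 CPM (log2 fold change 3.37, edgeR adjusted p = 0.00102, and 3.97 without NPD4). Scn9a, a sodium channel gene of pain-sensing neurons, had 173 CPM in NPD4, 3.44 to 5.85 CPM in the other E12.5 litters and 66.6 to 126 CPM at P0. Pou4f1, a homeobox gene of sensory neurons, had 210 CPM in NPD4 against 2.83 to 4.67 CPM, and 12.6 to 32.9 CPM at P0. Of the sympathetic genes, Dbh and Phox2a fell (log2 fold changes -3.50 and -2.77, edgeR adjusted p = 0.00764 and 0.0312), and NPD4 was the lowest E12.5 litter for both. Phox2a passed in 3 of the 8 fits with a litter left out, those without NPD4, NPD27 (-3.96) or NPD28, and Dbh was at -4.32 without NPD26. Th, which makes the precursor of noradrenaline, had 29.4 CPM in NPD4, 3.44 to 4.95 CPM in the other E12.5 litters and 1.53 to 6.52 CPM at P0, and did not pass (edgeR adjusted p = 0.225).

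Genes that mark the neurons of the spinal cord itself were mixed. Of 10 motor neuron genes, 6 were tested, 1 was higher and 2 lower. Chat, which makes acetylcholine, was at most 1.01 CPM in any litter, and Lhx3, a factor of motor neurons, at most 1.95 CPM. Mnx1, a homeobox gene of motor neurons that is also used in the notochord, reached 13.9 CPM in NDP10.2 and fell (log2 fold change -2.47, edgeR adjusted p = 0.0117). The abundant genes of this list are shared with sensory ganglia. Isl1 had 392 CPM in NPD4 and 13.0 to 24.6 CPM in the other E12.5 litters, and Prph, which encodes peripherin of peripheral neurons, rose from 31.4 ± 48.3 to 256 ± 99.0 CPM (log2 fold change 3.0, edgeR adjusted p = 0.0378). Prph passed in 1 of the 8 fits with a litter left out, that without NPD4, where its log2 fold change was 5.12. Isl2, a relative of Isl1, had 61.2 CPM in NPD4, 0.944 to 6.15 CPM in the other E12.5 litters and 12.0 to 31.3 CPM at P0. Of 17 interneuron genes, 9 were tested and 1, En1, fell (log2 fold change -2.85, edgeR adjusted p = 0.0045) from at most 9.67 CPM. Tlx3, of dorsal spinal and sensory neurons, had 62.5 CPM in NPD4 against 1.97 to 4.48 CPM, and 5.18 to 18.4 CPM at P0. Slc17a6, the vesicular glutamate transporter gene of spinal and sensory neurons, had 86.4 CPM in NPD4 and 47.4 to 92.5 CPM at P0, but 2.12 to 3.90 CPM in the other E12.5 litters, and Tal1, also a blood cell gene, was the other abundant one at 31.7 ± 25.9 and 21.1 ± 6.40 CPM. The inhibitory neuron genes Gad1 and Gad2 were at most 4.88 and 6.60 CPM in any litter. Tubb3 and Stmn2 were high in NPD4 and the P0 litters, as were the sensory neuron genes Scn9a and Pou4f1. Isl2, Tlx3 and Slc17a6, which spinal and sensory neurons share, were high there too. Tac1 and Calca of sensory neurons were high at P0 only. Chat, Lhx3, Gad1 and Gad2 were at or under 6.60 CPM in every litter. The cells that gave the Tubb3 and Stmn2 RNA were not tested.

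**Figure D4:**
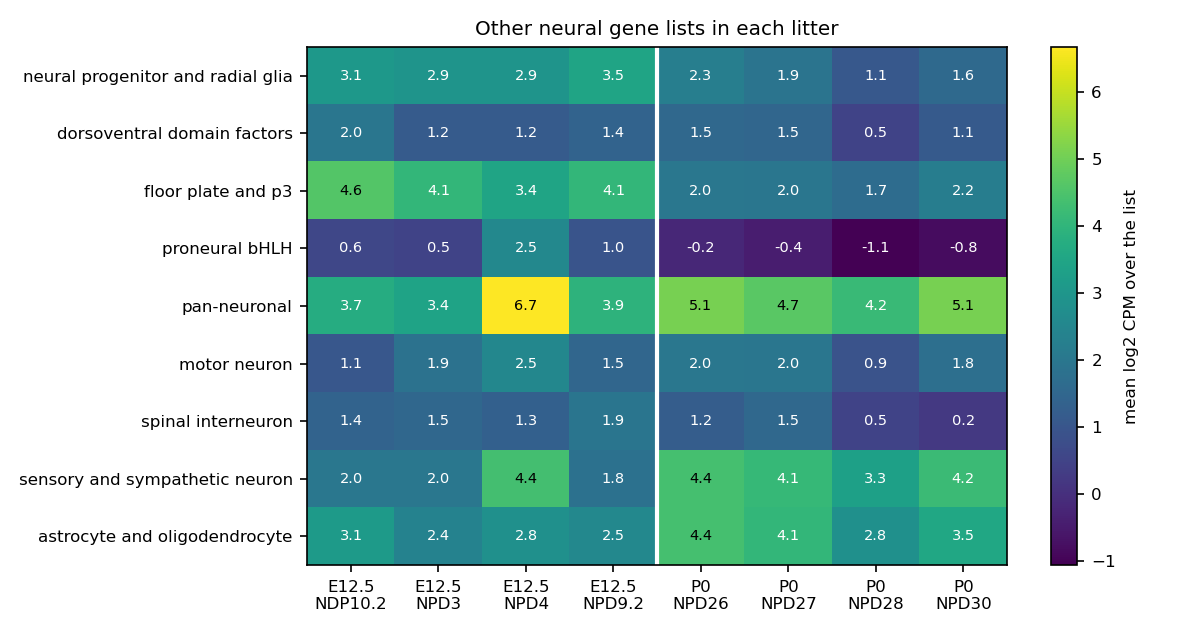
Mean log2 CPM of the genes of 9 neural lists (rows) in each litter (columns, E12.5 left of the white line and P0 right), with the value in each cell and as color. NPD4 is the brightest E12.5 column for the pan-neuronal and the sensory and sympathetic rows, where the P0 litters are also bright.

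Of the astrocyte and oligodendrocyte genes, 4 of 9 tested were higher and 2 lower. Mbp, a myelin gene of oligodendrocytes and Schwann cells, rose from 11.5 ± 5.04 to 113 ± 69.5 CPM (log2 fold change 3.29, edgeR adjusted p = 0.00196), and S100b, also expressed in cartilage, from 31.3 ± 14.9 to 118 ± 65.7 CPM (1.92, edgeR adjusted p = 0.00964). Pdgfra, of oligodendrocyte precursors and mesenchyme, fell by 1.99 on the log2 scale (edgeR adjusted p = 0.00038). Cspg4, of oligodendrocyte precursors and pericytes, had 262 ± 122 and 113 ± 86.9 CPM and did not pass.

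Several neuronal genes kept nearly fixed proportions to Tubb3 among the P0 litters. Tubb3 itself varied 2.36-fold between the highest and the lowest P0 litter, a coefficient of variation of 36.5%. Divided by Tubb3 of the same litter, Prph had a mean ratio of 1.89 with a coefficient of variation of 4.61%, Elavl3 0.396 with 7.81%, Elavl4 0.725 with 8.62%, Calca 0.321 with 9.42%, Tac1 0.823 with 9.51% and Pou4f1 0.180 with 12.5%. Stmn2 had a ratio of 2.61 with 16.5%. Others varied more, Scn9a with 38.5% and Map2 with 46.2%. Among the progenitor genes the coefficients were 37.4% for Fabp7, 86.1% for Sox2 and 101% for Nes, the last 2 at few counts. These ratios were examined after the values were seen and share the same Tubb3 counts and libraries.

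The ratios also differed between NPD4 and the P0 litters. Stmn2 was 1.20 times Tubb3 in NPD4, within the 0.780 to 1.23 of the other E12.5 litters, and 2.19 to 3.10 times at P0, where the ranges did not overlap. Tac1 was at 0.00566 of Tubb3 in NPD4 against 0.745 to 0.927 at P0, and Calca at 0.00273 against 0.284 to 0.347. Isl1 went the other way, at 0.680 of Tubb3 in NPD4 against 0.168 to 0.237. Elavl4 was close in NPD4, at 0.827, and in the P0 litters, at 0.684 to 0.818. NPD4 is a single litter, and these differences were not tested.

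**Figure D5:**
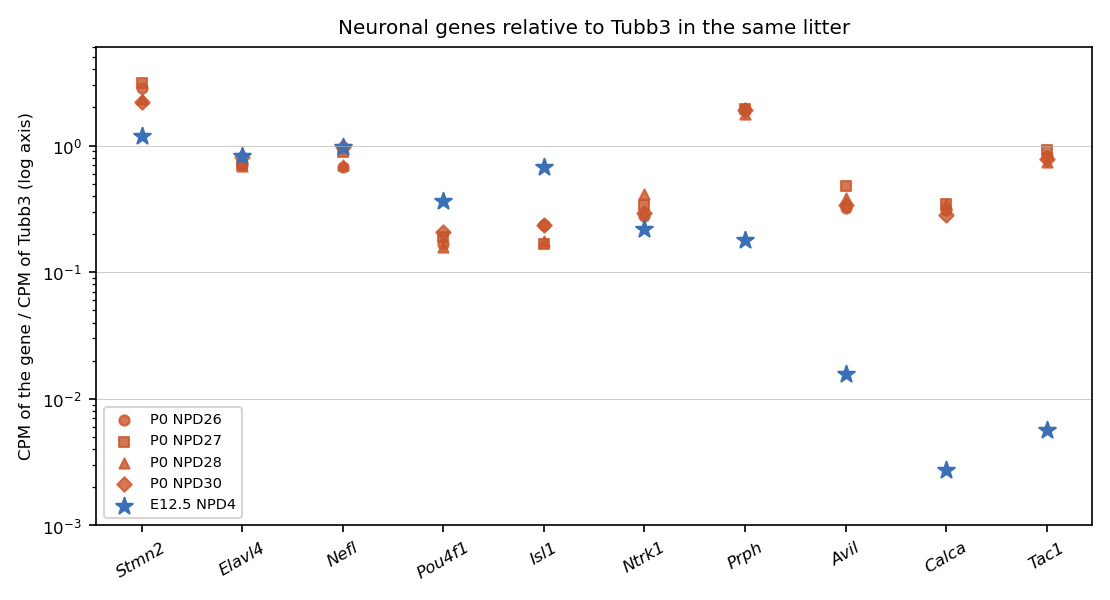
CPM of 10 neuronal genes divided by the CPM of Tubb3 in the same litter, on a log axis, for the 4 P0 litters (orange symbols) and the E12.5 litter NPD4 (blue star). The P0 litters lie close together for each gene, and NPD4 lies far below them for Prph, Avil, Calca and Tac1 and above them for Pou4f1 and Isl1.

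Genes of other cell types that could have been sampled moved between the stages as well. The background was again 16.0% of all genes tested higher and 12.0% lower. All 7 tested sclerotome genes fell, and their summed level went from 132 to 187 CPM at E12.5 to 7.77 to 21.8 CPM at P0, led by Pax1 (log2 fold change -5.29, edgeR adjusted p = 3.43e-05). Of 8 tested genes of the dermomyotome and myoblasts, 6 fell, from summed levels of 591 to 2340 CPM to 63.3 to 87.8 CPM, among them Myod1 (-5.22, edgeR adjusted p = 0.000552) and Actc1 (-5.74, edgeR adjusted p = 0.000959, and -6.62 without NPD27). Of 9 neural crest and Schwann genes, 6 fell, including Sox10 (-3.64, edgeR adjusted p = 0.00181) and Erbb3 (-3.47, edgeR adjusted p = 0.00018). The summed level was 357 to 741 CPM at E12.5, highest in NPD9.2, and 48.6 to 688 CPM at P0. Of 8 endothelial and pericyte genes, 2 were lower, with sums of 123 to 203 CPM and 64.4 to 158 CPM, and of 7 erythroid genes 5 were lower, with Hbb-y going from 13302 ± 10017 to 3.15 ± 1.35 CPM. Pax3, Nes and Sox2 fell beside these lists, and the part of muscle precursor, neural crest, Schwann or endothelial cells in their values was not tested. All 9 leukocyte genes were higher, with sums of 53.8 to 144 CPM and 925 to 7864 CPM, and both tested melanoblast genes, Mitf and Kit, were higher, Kit in 2 of the 8 fits with a litter left out.

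The notochord list did not follow NPD4's neuronal genes. Its summed level in NPD4 was 1269 CPM, the lowest of all litters, beside 1379 to 2918 CPM in the other E12.5 litters and 1969 to 6946 CPM at P0. None of its 7 tested genes had its highest E12.5 value in NPD4, as 24.3% of all genes tested had. Of the 7, 2 were higher and 1 lower at P0, beside 16.0% and 12.0% of all genes tested. The notochord gene Noto was at most 3 counts in any litter and was not tested. Foxa1 was the lower one (log2 fold change -2.23, edgeR adjusted p = 0.00682), Cd24a was higher (1.33, edgeR adjusted p = 0.0224, not passed without NDP10.2 or NPD9.2), and T did not pass (1.18, edgeR adjusted p = 0.117). Fabp7, Tubb3 and Stmn2 were highest in NPD4, the litter with the lowest notochord sum. NPD9.2, the next lowest at 1379 CPM, had 122 CPM of Fabp7, 43.5 CPM of Tubb3 and 33.9 CPM of Stmn2. A relation between the notochord sum and these genes was not tested.

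The genes most like each member over the 8 litters were found by the root mean square difference of log2 CPM after each gene was centred on its own mean, over 15466 genes. Nearest to Tubb3 were Elavl4, Rimkla and Nefl, at 0.318, 0.386 and 0.412, and nearest to Stmn2 were Actl6b, Stmn3 and Gm7271, at 0.227, 0.248 and 0.269. The median over all genes was 1.54 for Tubb3 and 1.88 for Stmn2. Fabp7 was nearest to Cntnap2 (0.209), Reep1 (0.255) and Cisd1 (0.271), with a median of 0.873. For Nes the nearest were Wt1, Tnnt2 and Hand2, at 0.383, 0.384 and 0.392 (median 2.44). For Sox2 they were Hoxb6, Gja4 and Nkain4 at 0.519, 0.523 and 0.544 (median 1.94), and for Pax3 Efna4, 4631405K08Rik and Hbq1b at 0.459, 0.484 and 0.498 (median 1.91). Pax6 was nearest to Cmtm3, Tjp3 and Vwc2 (0.427, 0.457 and 0.461, median 1.31) and Nkx6-1 to Trank1, Nr5a2 and Abcc6 (0.505, 0.510 and 0.538, median 1.43). The nearest genes of the neuron members include Elavl4, Nefl and Stmn3 of the pan-neuronal list. Those of Nes, Sox2 and Pax3 include none of the 14 tested genes of the progenitor list. With 3 nearest genes taken from 15466, finding none is likely for any gene, and no difference is read from it.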

How the data were processed

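The authors aligned the reads with STAR 2.4.0j to GRCm38, assigned them to Gencode M4 genes by htseq-count and deposited the raw count of each gene in each of the 8 litters. The submitters' notes also name the build mm9, with no role, and the strand setting is not given in the sources used here. Symbols, positions and exon lengths come from Gencode M21 on GRCm38, which matched 42462 of 43346 identifiers, and promoter sequences from RefSeq (GRCm38.p6), which matched 8 of the 10 members. Reads on genes numbered 4442775 to 7180221 in the E12.5 litters and 6371842 to 8904050 in the P0 litters, and 3 counts equal 0.337 to 0.675 CPM before TMM scaling.

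Genes were filtered with filterByExpr (minimum count 10, minimum total 15) and tested in R 4.3.3 with edgeR 4.0.16 (TMM, robust quasi-likelihood F-test) on stage alone, over all 8 litters. Calls were made at a Benjamini-Hochberg adjusted p below 0.05. A prior count of 2 was added for log2 CPM. The fit was first checked on simulated counts in which 200 genes had been changed. All members are named. Of each other list the genes named by rule are the 2 most abundant tested genes and the 2 called genes with the smallest adjusted p, and further genes named were chosen after their values were seen. Some genes that this rule names are not reported here. The members and lists were chosen with earlier results of these data known. The alternatives were DESeq2 1.42.0, limma 3.58.1 (voom), other scalings and filters, mitochondrial and hemoglobin genes left out, downsampling, each litter left out in turn, and pairs of litters left out.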

Additional observations from a re-analysis of the deposited data

Results flagged for a closer look

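Within each stage, a litter was singled out where its gap to the nearest other litter, divided by the range of the 4, passed Dixon's 95% critical value for 4 samples. The CPM scale was used, which was chosen with these values known and after it was seen that Tubb3 would not pass on log2 values. Over 66 genes, 21 of 132 groups of 4 litters were singled out in CPM and 11 on log2 CPM, where chance gives about 1 in 20 groups on a scale fixed beforehand, a rate that does not strictly apply here. In 13 of the 21, the litter was NPD4 at E12.5.

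Among the members, NPD4 stood out for Fabp7 at 463.4 CPM (next litter 175.3), for Tubb3 at 576.4 CPM (next 43.52) and for Stmn2 at 689.3 CPM (next 34.68). Of these, Stmn2 alone also passed on log2 CPM. The same litter stood out for the neuronal genes Insm1 at 81.12, Nefl at 558, Gap43 at 394.1, Nhlh1 at 112.2, Isl1 at 392.2, Prph at 103.6, Slc17a6 at 86.44, Scn9a at 173.5, Tac1 at 3.264 and Calca at 1.572 CPM. All 13 were the highest value of their group. None of Sox2, Pax3, Pax6, Nkx6-1, Olig2, Hes5 and Nes had such a litter at either stage.

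Outside the neural genes, the P0 litter NPD27 was highest for the endothelial genes Cdh5 at 45.57 and Emcn at 8.219 CPM. The E12.5 litter NPD9.2 was highest for the leukocyte genes Ptprc at 5.164 and Lyz2 at 69.59 CPM and for the embryonic globin Hba-x at 4975 CPM. At P0, NPD28 was highest for S100a8 at 1469 and S100a9 at 2241 CPM, and NPD30 was lowest for Lyz2 at 243.8 CPM.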

How the results depend on the processing

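No paired analysis was possible because the stages share no litter numbers. Over 19 alternatives, Nes and Pax3 kept their direction and stayed past the threshold, and Sox2 did so in 18, the exception being the fit without the E12.5 litters NDP10.2 and NPD9.2 (-3.10, adjusted p = 0.0646), which has fewer litters. The count of members past the test was 3 to 5 when 1 litter was left out, with 5 without NPD4, 2 without NDP10.2 and NPD9.2, and 4 without a filter. The count over the neural lists, 35, ranged from 29 to 58 when 1 litter was left out, with 58 without NPD4 and 32 without NPD3, and was 20 without NDP10.2 and NPD9.2. DESeq2 gave 42 and limma-voom 35. Over all genes, 4894 were called without a filter, 2581 without NDP10.2 and NPD9.2, and 4321 with all litters and the filter. Values that did not pass with all litters changed direction in some fits. Without NDP10.2 and NPD9.2, Pax6 was at 0.24, Nkx6-1 at 2.53, Fabp7 at -0.28 and Stmn2 at -0.062, and with limma-voom Nkx6-1 was at 0.077 and Tubb3 at 0.89 (adjusted p = 0.457). Leaving out 1 litter gave ranges of -0.56 to 0.19 for Pax6 (0.0038 without NDP10.2), -0.70 to 0.28 for Nkx6-1 (0.23 without NPD9.2 and 0.17 without NPD28), -0.070 (without NPD30) to 0.78 for Fabp7 (-0.059 without NPD9.2), -0.73 to 2.00 for Tubb3 and 0.44 to 3.43 for Stmn2, the upper ends for Fabp7, Tubb3 and Stmn2 being those without NPD4. The cause was not tested. Depth limits Pax6, Nkx6-1, Olig2 and Hes5, and the P0 values of Pax3 and Sox2, which were at or near 3 counts in some litters.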
